A study of Mus musculus with 8 samples.

Results

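The comparison described here sets the mouse embryonic stem cells (ESCs) with depleted Hdac6 against those with intact Hdac6, 4 microarrays in each set, and these 8 arrays are the whole series. The Hdac6-depleted set held the Hdac6 KD cells (n = 2) and the cells with both Tip60 and Hdac6 knocked down, called double KD (n = 2). The Hdac6-intact set held control KD cells, which received a hairpin against GFP (n = 2), and Tip60 KD cells (n = 2). All were E14 ESCs grown without feeders in serum and LIF, infected with lentivirus that carried a short hairpin RNA (shRNA), and collected 72 hours later, so the controls were infected as well. Each group had 1 biological replicate labelled A and 1 labelled B. By the study's methods 1 hairpin was used per gene, so loss of Hdac6 and any other action of its hairpin cannot be told apart. Genes were chosen by the main effect of Hdac6, fitted with limma together with Tip60 status and the replicate letter, and by whether all 4 depleted arrays lay on one side of all 4 intact arrays.

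Hdac6 is a member of the zinc-dependent lysine deacetylase family that resides mostly in the cytoplasm of differentiated cells. Its place in the ESCs is not read by these arrays. It removes acetyl groups from alpha-tubulin, cortactin and the chaperone Hsp90, and through a zinc finger that binds ubiquitin it carries misfolded protein along microtubules to the aggresome. Tip60-p400, with which the study paired it, is a complex that joins the histone acetyltransferase Tip60 (gene Kat5) to the nucleosome remodeler p400 and is known in ESCs for keeping developmental genes low. The comparison addresses which transcripts differ when Hdac6 is lowered, whether or not Tip60 is lowered too. An mRNA array reads transcript levels, so it does not see the acetylation of proteins.

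Of the 39429 probes measured, 18112 genes (1 probe each) passed the filter on dim signals. Replicate A of every group was hybridized on 1 slide and replicate B on another, which the replicate letter in the model takes up. Position on the slide was fixed by group, so position and group cannot be told apart. The background that the scanner software subtracted had array medians of 37.7 to 86.9 in the depleted set and 37.2 to 114.3 in the intact set. Spots well above background numbered 27645 to 40276 against 21896 to 40609. Within replicate B the double KD array stood apart, with a background of 41.4 against 86.9 to 114.3 on the others. It had 40276 spots well above background against 21896 to 27645, and 481 genes at the floor against 849 to 1876. Within replicate A the control KD array stood apart, with a background of 61 against 37.2 to 39.4 on the others. It had 31179 spots well above background against 39622 to 40609, and 2698 genes at the floor against 1759 to 2160. In replicate B, too, control KD had the highest background, the fewest such spots and the most genes at the floor. The replicate letter does not take up such differences between arrays of a slide, which bear most on dim genes. The 10 ESC markers were all measured. The summed level of the 8 with a value on every array covered 8.32 to 8.47 (log2) over the depleted arrays and 8.38 to 8.45 over the intact ones. Of the markers of other cell types, 5 of 9 for primitive endoderm (Gata6, Sox7, Foxa2, Afp and Dab2), 3 of 7 for trophectoderm (Cdx2, Elf5 and Gata3) and 2 of 9 for fibroblasts (Dcn and Postn) were at the detection floor on all 8 arrays. The summed levels of these 3 marker lists overlapped between the sets, at 3.75 to 4.42 against 3.65 to 4.37, 2.59 to 3.40 against 2.44 to 3.73, and 1.64 to 2.09 against 1.76 to 2.13, in the same order of lists with the depleted set first.

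The hairpin targets behaved as labelled. Signals are given throughout as log2 of the signal divided by the 75th percentile of its array, replicate A before replicate B. Hdac6 measured 2.21 and 2.18 with control KD, 1.74 and 1.77 with Tip60 KD, -0.28 and -0.32 with Hdac6 KD and 0.30 and 0.34 with double KD. All 4 depleted arrays lay below all 4 intact arrays, with a gap of 1.40 between the sets. The main effect was -1.96 ± 0.21, adjusted p = 0.0431 (SE, limma), which left 25.6% of the intact signal. A second Hdac6 probe separated the same arrays, with a difference of -1.92. Its position (chrX:7507249-7507308) overlaps most of that of the first (chrX:7507261-7507320), so both read nearly the same stretch. Hdac6 transcript was lowered more in cells with intact Tip60 (-2.49) than in Tip60 KD cells (-1.44), and the interaction was called (1.05, adjusted p = 0.00141). In Tip60 KD cells Hdac6 was already below the control level, while in double KD cells it remained above its level in Hdac6 KD cells. Kat5 measured 1.34 and 1.37 with control KD, 0.00 and 0.01 with Tip60 KD, 1.52 and 1.53 with Hdac6 KD and -0.11 and 0.20 with double KD. It fell with the Tip60 hairpins (-1.42, adjusted p = 0.000566), and its Hdac6 main effect of 0.11 ± 0.08 did not pass (adjusted p = 0.491).

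Depletion of Hdac6 was accompanied by many modest differences and few large ones. Of 18112 genes, 863 were called at an adjusted p under 0.1, which is 4.76% of the genes tested: 477 (2.63%) were higher in the depleted set and 386 (2.13%) lower. At an unadjusted p under 0.05 there were 3525. Among 17943 genes with a value on every array, 1248 (6.96%) separated all 4 arrays from all 4, 607 (3.38%) of them higher and 641 (3.57%) lower in the depleted set. Both conditions were met by 532 genes (2.96%), 278 higher and 254 lower. Their main effects were between 0.25 and 1.96 in size on the log2 scale, with a median of 0.46, and the empty interval between the 2 sets had a median of 0.15. Only 9 genes were called with a difference of at least 2-fold. Of these, Hmga2, Slc5a11, Ppp1r10 and 2310043M15Rik were higher and Hdac6, Suz12, 8030474K03Rik, Plekhb2 and Orc4 were lower. All 9 separated the sets.

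**Figure D1:**
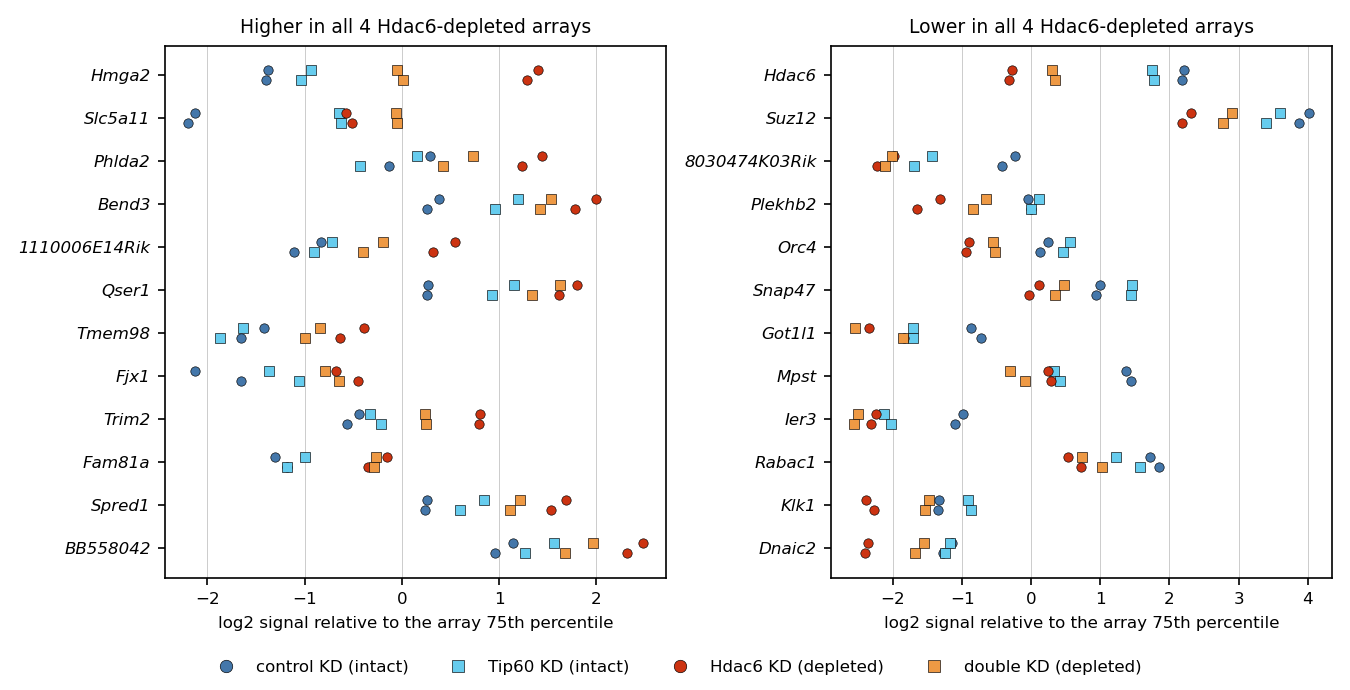
Log2 signal relative to the array 75th percentile (horizontal axis) of the 12 genes with the largest increase (left) and the 12 with the largest decrease (right) among genes that separated the sets, were called and lay above the detection floor on all 8 arrays. Each point is 1 array, with replicate A drawn above replicate B, and in every row the 4 depleted arrays (red and orange) lie to one side of the 4 intact arrays (blue and light blue), as the choice of genes required; Hdac6 has the widest gap (1.40) and Slc5a11 and Mpst the narrowest (0.05).

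Hmga2, an AT-hook chromatin protein of embryonic cells whose mRNA is a known target of the let-7 microRNAs, had the largest increase among the called genes. It measured -1.37 and -1.39 with control KD, -0.94 and -1.03 with Tip60 KD, 1.40 and 1.29 with Hdac6 KD and -0.05 and 0.02 with double KD. The Hdac6 KD arrays were highest, the double KD arrays lay between, and every depleted array was above every intact one. The main effect was 1.85 ± 0.35, adjusted p = 0.0678, or 3.59-fold. A second Hmga2 probe showed 0.61 without separating the sets, so the probes of this gene differ in size. At the other end stood Suz12, a core subunit of the Polycomb repressive complex PRC2, which methylates histone H3 at lysine 27. Its values were 4.02 and 3.87 with control KD, 3.60 and 3.40 with Tip60 KD, 2.32 and 2.18 with Hdac6 KD and 2.91 and 2.77 with double KD. The order of the groups mirrored that of Hmga2, with Hdac6 KD lowest and double KD between, and the main effect was -1.18 ± 0.21, adjusted p = 0.0606, which left 44.2% of the intact signal. Orc4, a subunit of the origin recognition complex that licenses DNA replication, measured 0.24 and 0.13 with control KD, 0.56 and 0.46 with Tip60 KD, -0.90 and -0.95 with Hdac6 KD and -0.56 and -0.53 with double KD. It fell by nearly the same amount in both Tip60 states (-1.11 and -1.05) and had a main effect of -1.08 ± 0.06, adjusted p = 0.0187. Its second probe differed by -0.26 and did not separate the sets, so the probes disagree on the size of the Orc4 change.

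The promoters of these genes are shown because Hmga2 and Suz12 had the largest called change in either direction besides Hdac6 itself, and Orc4 the most even fall across the Tip60 states among the 12 largest decreases. Each runs from 250 bases before to 50 bases after the RefSeq transcription start (build GRCm38.p6), 5′ to 3′ on the strand of the gene: Hmga2 at chr10:120476420-120476719, minus strand, Suz12 at chr11:79992856-79993155, plus strand, and Orc4 at chr2:48949218-48949517, minus strand, the most downstream of 3 listed Orc4 starts. Capitals mark any match to 6 short motifs searched on both strands: the TATA box TATAAA, the CCAAT box, the GC box GGGCGG, the E box CACGTG, the cAMP response element TGACGTCA and the ETS core CGGAAG.
Hmga2: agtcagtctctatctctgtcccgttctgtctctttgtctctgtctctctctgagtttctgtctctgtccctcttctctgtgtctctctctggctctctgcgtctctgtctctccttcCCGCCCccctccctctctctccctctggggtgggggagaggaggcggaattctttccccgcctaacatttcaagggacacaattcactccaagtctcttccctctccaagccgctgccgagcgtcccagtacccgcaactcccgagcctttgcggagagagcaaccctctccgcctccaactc
Suz12: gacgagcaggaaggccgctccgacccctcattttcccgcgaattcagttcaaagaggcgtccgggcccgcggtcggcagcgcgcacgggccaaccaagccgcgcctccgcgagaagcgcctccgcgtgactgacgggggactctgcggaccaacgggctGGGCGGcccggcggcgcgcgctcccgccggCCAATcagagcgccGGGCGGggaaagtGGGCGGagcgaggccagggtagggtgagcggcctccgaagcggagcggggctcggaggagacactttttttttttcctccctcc
Orc4: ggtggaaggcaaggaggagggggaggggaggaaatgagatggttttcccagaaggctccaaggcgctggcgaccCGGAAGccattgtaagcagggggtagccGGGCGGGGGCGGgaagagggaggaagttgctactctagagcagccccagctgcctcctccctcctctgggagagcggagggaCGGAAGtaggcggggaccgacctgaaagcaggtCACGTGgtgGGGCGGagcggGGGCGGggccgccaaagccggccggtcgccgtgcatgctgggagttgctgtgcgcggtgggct
The Hmga2 window held 1 GC box, that of Suz12 held 3 GC boxes and 1 CCAAT box, and that of Orc4 held 4 GC boxes, 2 ETS cores and 1 E box. The first 2 GC boxes of Orc4 adjoin each other, and no match shared a base with another. The GC content of the windows was 57.7%, 71.0% and 68.0%, with 12, 41 and 21 CpG dinucleotides. Across the members, a GC box was present in 64.7% of 289 promoters of genes that separated and were called higher, in 60.0% of 165 promoters of those lower, in 57.1% of 14369 promoters of all genes tested and in 35.7% of 32851 promoters of all genes. The CCAAT box stood in 30.8% of the promoters of higher genes and 44.8% of those of lower genes, against 37.9% for all genes tested and 37.4% for all promoters. For the ETS core the shares were 21.5%, 26.7%, 27.3% and 16.9% in the same order, for the E box 9.0%, 9.09%, 9.35% and 7.15%, for the TATA box 7.61%, 9.70%, 8.77% and 13.6%, and for the cAMP response element 2.77%, 3.64%, 2.77% and 1.79%. Of the 278 higher and 254 lower genes, 210 and 134 had a promoter in this table, and these shares are a description with no test.

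Next in size among the increases, Slc5a11, a sodium-coupled transporter of inositol, measured -2.13 and -2.20 with control KD, -0.65 and -0.63 with Tip60 KD, -0.58 and -0.51 with Hdac6 KD and -0.06 and -0.05 with double KD. Its control KD arrays stood far below the rest, Tip60 KD came close to Hdac6 KD, and the sets were 0.05 apart (1.1 ± 0.21, adjusted p = 0.0681). Phlda2, an imprinted gene that restrains growth of the placenta, measured 0.29 and -0.13 with control KD, 0.16 and -0.43 with Tip60 KD, 1.44 and 1.24 with Hdac6 KD and 0.73 and 0.43 with double KD. Replicate A was above replicate B in every group, and within each letter both depleted arrays exceeded both intact arrays (0.98 ± 0.13, adjusted p = 0.0431). Tmem98, the gene of a membrane protein, measured -1.42 and -1.66 with control KD, -1.63 and -1.87 with Tip60 KD, -0.38 and -0.64 with Hdac6 KD and -0.84 and -1.0 with double KD. Fam81a measured -1.30 and -1.18 with control KD, -1.0 and -1.18 with Tip60 KD, -0.15 and -0.35 with Hdac6 KD and -0.26 and -0.28 with double KD. Both separated the sets clearly and rose by similar amounts in the 2 Tip60 states, by 1.03 and 0.83 for Tmem98 and by 0.99 and 0.82 for Fam81a, although for Tmem98 the small difference was called (adjusted p = 0.0992 for the interaction, against 0.355 for Fam81a). Their main effects were 0.93 ± 0.07, adjusted p = 0.0347 and 0.90 ± 0.09, adjusted p = 0.0416.

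Bend3, a BEN-domain repressor found at heterochromatin, and Qser1, which shields the promoters of developmental genes from DNA methylation, shared a pattern. Bend3 measured 0.39 and 0.26 with control KD, 1.19 and 0.96 with Tip60 KD, 2.0 and 1.78 with Hdac6 KD and 1.53 and 1.42 with double KD. Qser1 measured 0.26 and 0.25 with control KD, 1.15 and 0.93 with Tip60 KD, 1.80 and 1.61 with Hdac6 KD and 1.63 and 1.34 with double KD. In both, Tip60 KD lay above control KD and the 4 depleted arrays lay higher still, with main effects of 0.98 ± 0.23, adjusted p = 0.0993 and 0.95 ± 0.21, adjusted p = 0.0868. Other Qser1 probes showed 0.15 and 0.72 without separating the sets. Spred1, an inhibitor of Ras and ERK signalling, measured 0.26 and 0.24 with control KD, 0.84 and 0.59 with Tip60 KD, 1.68 and 1.53 with Hdac6 KD and 1.22 and 1.11 with double KD (0.90 ± 0.19, adjusted p = 0.0797), and a second probe separated the sets as well, by 0.83. Trim2, a ubiquitin ligase, measured -0.44 and -0.57 with control KD, -0.33 and -0.21 with Tip60 KD, 0.80 and 0.80 with Hdac6 KD and 0.24 and 0.25 with double KD (0.91 ± 0.17, adjusted p = 0.0642), with a second probe at 1.11 that also separated the sets. In these genes, too, Hdac6 KD was highest and double KD second. Fjx1, the mouse relative of the fly four-jointed kinase, measured -2.12 and -1.66 with control KD, -1.37 and -1.05 with Tip60 KD, -0.68 and -0.45 with Hdac6 KD and -0.79 and -0.65 with double KD (0.91 ± 0.18, adjusted p = 0.0708). The transcripts 1110006E14Rik and BB558042 have no role assigned here. The first measured -0.83 and -1.1 with control KD, -0.72 and -0.90 with Tip60 KD, 0.55 and 0.32 with Hdac6 KD and -0.20 and -0.40 with double KD (0.96 ± 0.18, adjusted p = 0.0683). BB558042 measured 1.15 and 0.95 with control KD, 1.57 and 1.27 with Tip60 KD, 2.48 and 2.31 with Hdac6 KD and 1.97 and 1.68 with double KD (0.87 ± 0.19, adjusted p = 0.088). All 3 separated the sets, with Hdac6 KD highest within each replicate letter.

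For genes with arrays at the detection floor the size of the change is less certain. Ppp1r10, which encodes a nuclear regulatory subunit of protein phosphatase 1, measured -2.71 and -2.71 with control KD, -2.33 and -2.61 with Tip60 KD, -1.50 and -1.59 with Hdac6 KD and -1.55 and -1.59 with double KD, where -2.71 is the floor. 2310043M15Rik measured -2.08 and -2.71 with control KD, -1.42 and -1.52 with Tip60 KD, -0.82 and -0.93 with Hdac6 KD and -0.94 and -0.95 with double KD. Their fitted increases of 1.03 and 1.02 (adjusted p = 0.0372 and 0.0865) take the floor as the value of those arrays. In 2 genes that separated and were called, all 4 intact arrays lay at the floor: St7, at least 1.31-fold higher with depleted values from -2.60 to -2.17 (adjusted p = 0.0979), and H1f10, the gene of a linker histone, at least 1.29-fold higher with depleted values from -2.44 to -2.23 (adjusted p = 0.0612). No gene that fell had all 4 depleted arrays there.

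Among the decreases, Plekhb2, a pleckstrin-homology protein of recycling endosomes, measured -0.04 and -0.01 with control KD, 0.12 and -0.01 with Tip60 KD, -1.32 and -1.66 with Hdac6 KD and -0.65 and -0.84 with double KD. The 4 intact arrays lay close together and every depleted array was lower (-1.13 ± 0.15, adjusted p = 0.0431). Snap47, a SNARE protein, measured 1.0 and 0.94 with control KD, 1.46 and 1.44 with Tip60 KD, 0.11 and -0.04 with Hdac6 KD and 0.47 and 0.35 with double KD. It fell alike in both Tip60 states, by 0.93 and 1.04 (-0.99 ± 0.07, adjusted p = 0.0204), and a second probe separated the sets at -0.88. Rabac1, an acceptor of prenylated Rab proteins on the Golgi, measured 1.71 and 1.85 with control KD, 1.22 and 1.57 with Tip60 KD, 0.53 and 0.72 with Hdac6 KD and 0.73 and 1.02 with double KD (-0.84 ± 0.14, adjusted p = 0.0533), and its second probe separated the sets as well, at -0.56. Mpst, an enzyme that transfers sulfur from mercaptopyruvate, measured 1.37 and 1.45 with control KD, 0.33 and 0.42 with Tip60 KD, 0.25 and 0.28 with Hdac6 KD and -0.31 and -0.09 with double KD (-0.86 ± 0.13, adjusted p = 0.0455). Here the Tip60 KD arrays reached almost down to the Hdac6 KD arrays, and the gap was 0.05.

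Ier3, an immediate early gene linked to cell survival, measured -0.99 and -1.1 with control KD, -2.14 and -2.03 with Tip60 KD, -2.25 and -2.31 with Hdac6 KD and -2.50 and -2.56 with double KD. The control KD arrays stood alone at the top, and the depleted arrays lay closely below Tip60 KD (-0.84 ± 0.17, adjusted p = 0.0722). The X-linked 8030474K03Rik had the same shape, at -0.23 and -0.43 with control KD, -1.43 and -1.69 with Tip60 KD, -1.98 and -2.23 with Hdac6 KD and -2.01 and -2.11 with double KD (-1.14 ± 0.26, adjusted p = 0.0903). Klk1, a tissue kallikrein, measured -1.34 and -1.36 with control KD, -0.92 and -0.87 with Tip60 KD, -2.39 and -2.28 with Hdac6 KD and -1.49 and -1.53 with double KD (-0.80 ± 0.10, adjusted p = 0.0431). In Klk1 the Tip60 KD arrays were highest and the double KD arrays lay just under control KD. Dnaic2, an intermediate chain of axonemal dynein, measured -1.15 and -1.28 with control KD, -1.17 and -1.24 with Tip60 KD, -2.36 and -2.40 with Hdac6 KD and -1.56 and -1.68 with double KD (-0.79 ± 0.16, adjusted p = 0.0725). Got1l1, a relative of aspartate aminotransferase, measured -0.87 and -0.72 with control KD, -1.72 and -1.72 with Tip60 KD, -2.34 and -1.85 with Hdac6 KD and -2.55 and -1.86 with double KD (-0.89 ± 0.20, adjusted p = 0.0894).

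Around Suz12 and Orc4 the other subunits of the same complexes were read as whole lists, chosen after the values were seen and therefore given as counts without a test. Of 11 PRC2 subunits measured, 2 were called, Suz12 and Rbbp7, both lower and both separating the sets, beside 2.13% of all genes called lower and 2.63% called higher, and the median effect was -0.18 against 0.01 over all genes. Rbbp7, a histone-binding WD40 protein shared by PRC2, NuRD, Sin3 and the Hat1 acetyltransferase, measured 4.54 and 4.56 with control KD, 4.30 and 4.53 with Tip60 KD, 3.54 and 3.71 with Hdac6 KD and 3.73 and 3.82 with double KD (-0.78 ± 0.09, adjusted p = 0.0431), and every depleted array was below every intact one. The catalytic subunits did not pass, at -0.01 for Ezh2 and -0.41 for Ezh1, nor did Eed (0.02). These main effects average unlike values in Tip60-intact and Tip60 KD cells: -0.20 and 0.19 for Ezh2, -1.02 and 0.19 for Ezh1, and -0.10 and 0.13 for Eed. The interaction was called for each of them, beside 47.1% of all genes. Among 18 measured members of the NuRD, Sin3 and Hat1 complexes, 4 were called lower (Rbbp7, Hat1 at -0.51, Hdac2 at -0.38 and Sin3a at -0.33) and 1 higher (Mta1 at 0.58), all 5 separating the sets, while the median was 0.13. Of 14 genes, the subunits of the origin recognition and MCM complexes together with Cdc6 and Cdt1, Orc4 alone was called, and the other 13 ran from -0.15 to 0.09. The SWI/SNF (BAF) complex, a remodeler of nucleosomes, had 2 of 19 called, the DNA-binding subunits Arid1a at 0.54 and Arid1b at 0.65, both higher.

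Other families were chosen the same way, and their counts stand beside the same 2.63% of all genes called higher and 2.13% called lower. Among 15 measured genes of FGF and ERK feedback, which ERK activity is known to induce, 5 were called higher and 1 lower, with a median of 0.29. Spred1 was joined by Spry4 (0.67), Il17rd (0.56), Dusp6 (0.50) and Etv5 (0.29), while Ier3 was the one that fell. Etv1 (0.98) and Etv4 (0.50) separated the sets without being called, and Egr1 (-0.03) did neither. Nor did Spry2, with 2 arrays at the floor, or Fos, which was above the floor with control KD alone. Of 8 genes that write, read or remove DNA methylation, the methyltransferase Dnmt3b (0.46) and Uhrf1 (0.38), which brings Dnmt1 to newly replicated DNA, rose and Dnmt1 measured -0.03. Of 26 imprinted genes 3 were called, Phlda2, Grb10 and Meg3 (0.55), all higher, and the median was 0.04. Grb10 measured -2.71 and -2.71 with control KD, -2.71 and -2.38 with Tip60 KD, -1.48 and -1.46 with Hdac6 KD and -2.07 and -2.26 with double KD, with 3 of its 4 intact arrays at the floor, so its fitted 0.81 is not a measured size. Meg3 measured 1.25 and 1.29 with control KD, 1.03 and 0.93 with Tip60 KD, 1.87 and 1.86 with Hdac6 KD and 1.55 and 1.43 with double KD, with depleted arrays above intact ones in each letter. The probe of 1110006E14Rik (chr12:110836685-110836744) lies between that of Meg3 (chr12:110809678-110809737) and that of Mirg (chr12:110987569-110987628; 0.71, separating without a call) on build mm9. The MHC class I list had 17 genes measured, the H2 genes together with B2m, Tapbp and Tap2. The H2 genes are close in sequence, which lets one probe bind several transcripts. Of the 17, 6 were called lower (H2-Q5, H2-T23, H2-Q2, H2-Bl, H2-Q7 and H2-Q10), from -0.65 for H2-Q5 to -0.39 for H2-Q10, and none higher. H2-K1 (-0.14) and H2-D1 (-0.26) did not pass. H2-Bl had 3 of its depleted arrays at the floor. B2m, the common light chain of class I, measured 0.65 without passing. The kallikrein 1 family, also near-identical in sequence, had 3 of 9 called, all lower, with Klk1b3 at -0.74 and Klk1b24 at -0.40, with 1 depleted array at the floor, next to Klk1.

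**Figure D2:**
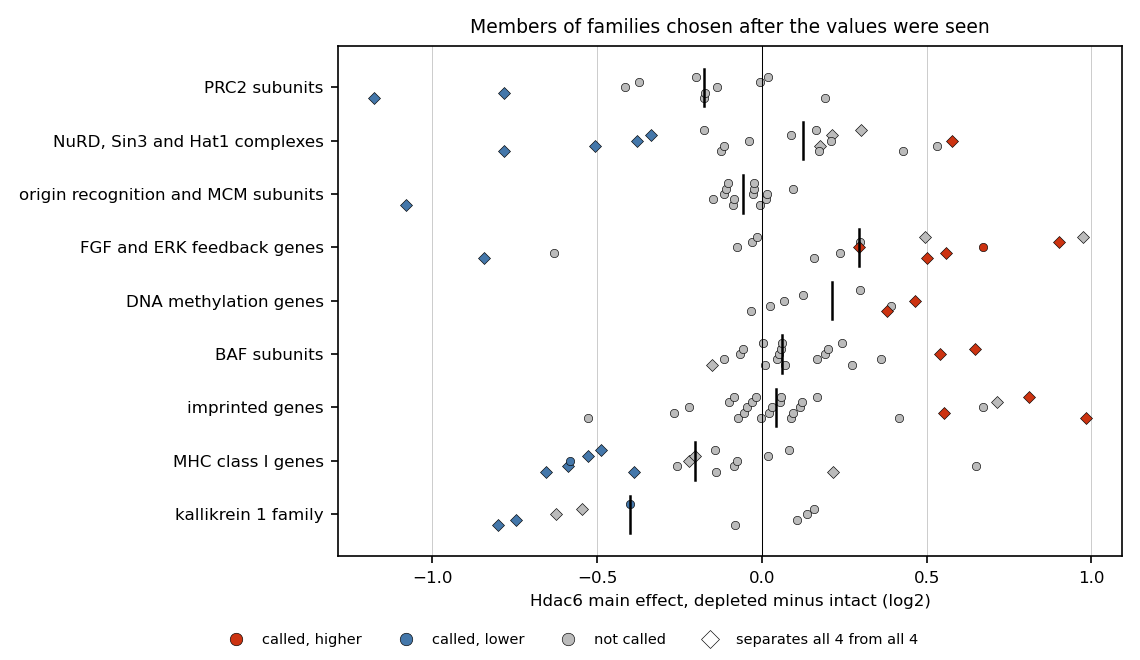
Hdac6 main effect (horizontal axis, log2, depleted minus intact) of every measured member of 9 complexes and families chosen after the values were seen. Red and blue points were called higher and lower, gray points were not called, diamonds separated all 4 arrays from all 4, and the black bar is the median of the family, which runs from -0.40 for the kallikrein 1 family to 0.29 for the FGF and ERK feedback genes.

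The main effect averages 2 contrasts that share no array: Hdac6 KD minus control KD, and double KD minus Tip60 KD. In a fit with all 4 groups and the replicate letter, the first was called for 9586 genes (52.9%) and the second for 4747 (26.2%). Called in both in the same direction were 1269 genes, 715 higher and 554 lower, and called in both in opposite directions were 1844. Across all genes the 2 contrasts had a Pearson correlation of -0.07 and a Spearman correlation of -0.10, where genes are not independent of each other. The interaction, which tests whether the Hdac6 difference is the same in both Tip60 states, was called for 8523 genes (47.1%). The additive model of the main effect has no such term, so a difference between the states adds to its residual spread. Of the 532 genes that separated and were called, which by construction have the same sign in both states, 192 had a called interaction, beside the 47.1% of all genes. The difference was smaller in Tip60 KD cells in 172 of these and larger in 20, and directions were not counted over all genes. Their median difference was 0.49 in size with intact Tip60 and 0.38 in Tip60 KD cells.

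Hmga2 had the largest interaction of the lead genes and rose by 2.72 with Tip60 intact and by 0.97 in Tip60 KD cells (interaction -1.75, adjusted p = 0.00115). Hdac6 itself was lowered less in Tip60 KD cells (-2.49 against -1.44), and its part in this and the other interactions was not tested. Suz12 fell by 1.70 and 0.66 (interaction 1.04, adjusted p = 0.00138). Among the 12 largest increases and 12 largest decreases, 21 of 24 had a called interaction, beside 47.1% of all genes. Each of the 21 went toward a smaller difference in Tip60 KD cells. These 24 were picked by the size of their effect, and directions were not counted over all genes. Orc4, Snap47 and Fam81a were those without a called interaction, at 0.05, -0.11 and -0.17 (adjusted p = 0.653, 0.344 and 0.355). Got1l1 was called in Hdac6 KD (-1.30) but not in double KD (-0.49, adjusted p = 0.12). Hdac2 was among the genes that went the other way, falling by 0.24 with Tip60 intact and by 0.52 in Tip60 KD cells (interaction adjusted p = 0.0423), and so was the peroxidase gene Gpx4, at -0.35 and -0.65 (adjusted p = 0.05).

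**Figure D3:**
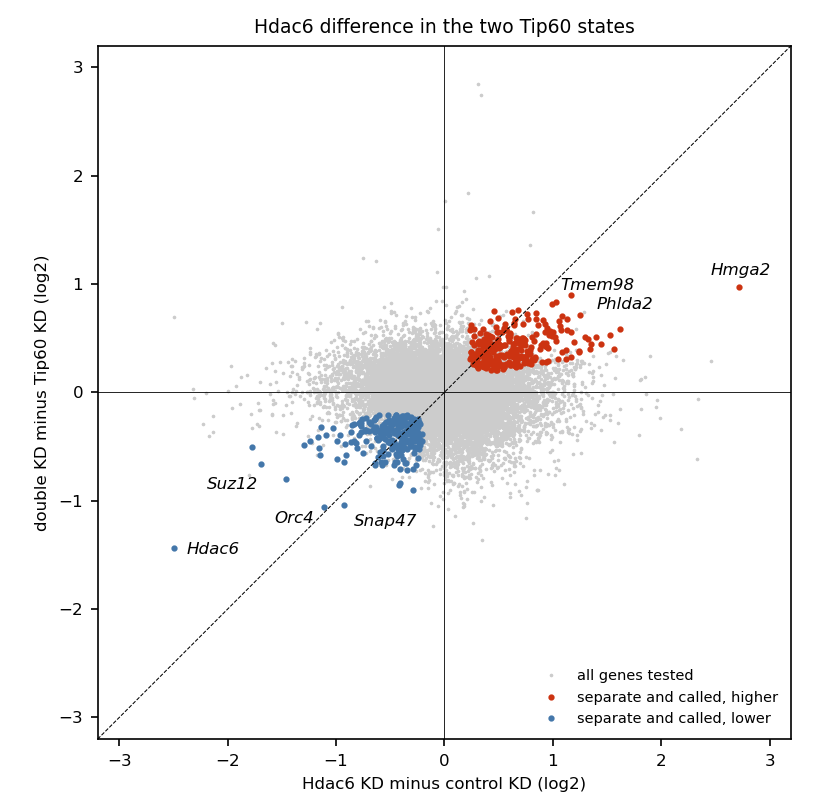
Difference between Hdac6 KD and control KD (horizontal axis, log2) against the difference between double KD and Tip60 KD (vertical axis, log2) for each gene tested, with the dashed line marking equal differences. Red and blue points separated the sets and were called, and the rule places them in 2 quadrants; Hmga2 (2.72 and 0.97) lies well below the line, with the larger difference where Tip60 was intact, while Orc4 (-1.11 and -1.05) lies close to it, and 3 genes lie outside the axes.

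The relatives and substrates of Hdac6 were examined as lists chosen with earlier results of these data known, so counts are given beside those of all genes, of which 2.63% were called higher and 2.13% lower, with a median effect of 0.01. Among 16 measured lysine deacetylases other than Hdac6, Hdac2 fell, Sirt6 and Sirt1 rose, and the median was 0.03. Hdac2, a nuclear class I enzyme, measured 1.23 and 1.06 with control KD, 1.51 and 1.45 with Tip60 KD, 1.0 and 0.82 with Hdac6 KD and 1.03 and 0.87 with double KD (-0.38 ± 0.08, adjusted p = 0.0867). Sirt6, a chromatin sirtuin, measured 0.68 and 0.89 with control KD, 0.64 and 0.79 with Tip60 KD, 1.15 and 1.19 with Hdac6 KD and 0.95 and 0.97 with double KD (0.32 ± 0.07, adjusted p = 0.088). The gap between the sets was 0.03 for Hdac2 and 0.06 for Sirt6. Sirt1, another sirtuin of the nucleus, measured 2.51 and 2.41 with control KD, 3.38 and 3.14 with Tip60 KD, 3.32 and 3.06 with Hdac6 KD and 3.68 and 3.39 with double KD (0.50 ± 0.11, adjusted p = 0.0863) and did not separate them, because Tip60 KD overlapped with Hdac6 KD. Hdac1 (0.21) and Hdac4 (-0.23) separated the sets without a call, and Hdac10, the other class IIb enzyme, measured 0.01 without passing.

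Of 24 tubulin and microtubule genes 1 passed, Map1b, which binds and stabilizes microtubules in neurites. It measured 0.72 and 0.52 with control KD, 0.58 and 0.23 with Tip60 KD, 1.75 and 1.42 with Hdac6 KD and 1.06 and 0.81 with double KD (0.75 ± 0.11, adjusted p = 0.0431). Hdac6 KD was above double KD, and both were above the intact arrays. The 4 alpha-tubulins of the list, a protein whose acetylation Hdac6 removes, ran from 0.11 (Tuba1b) to 0.36 (Tuba1a) with none called. Outside the list, and named after their values were seen, Tuba3b was called lower and separated the sets (-0.37 ± 0.07, adjusted p = 0.0722), and Tuba3a, close to it in sequence, separated them at -0.59 without a call. Cttn, the cortactin gene, measured 0.03, and the tubulin acetyltransferase gene Atat1 -0.17. In the 28 genes of aggresome, autophagy and lysosome, Lamp1, a lysosomal membrane protein, rose and Map1lc3a, a gene of the LC3 autophagosome proteins, fell. Lamp1 measured 5.03 and 5.02 with control KD, 5.11 and 4.92 with Tip60 KD, 5.54 and 5.39 with Hdac6 KD and 5.41 and 5.18 with double KD (0.36 ± 0.07, adjusted p = 0.075) and was higher in each depleted array. Map1lc3a measured -0.42 and -0.44 with control KD, -0.53 and -0.42 with Tip60 KD, -0.91 and -0.73 with Hdac6 KD and -0.87 and -0.91 with double KD (-0.41 ± 0.07, adjusted p = 0.0526) and was lower in each. Both changes were of similar size in the 2 Tip60 states. Wipi1 (-0.54) separated the sets without a call, and Lamp2 (-0.99) and Sqstm1 (0.10) did not pass. Of 24 heat shock genes only Hspa9, the mitochondrial Hsp70, was called (-0.40 ± 0.06, adjusted p = 0.0504), while Hsp90aa1 and Hsp90ab1, which encode the Hdac6 substrate Hsp90, measured -0.01 and 0.01.

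Tip60-p400 itself had 1 of 18 subunits called. Vps72, which the complex shares with the SRCAP remodeler, rose by 0.42 ± 0.10 (adjusted p = 0.0965) without separating the sets, and Ep400, the p400 gene, separated them at -0.36 without being called. The median of the list was 0.01. Of 28 genes listed as pluripotency factors 4 rose and none fell, with a median of 0.05. The 4 include Dnmt3b, the methyltransferase also counted above among the DNA methylation genes. Dnmt3b measured 3.34 and 3.45 with control KD, 3.22 and 3.30 with Tip60 KD, 3.94 and 4.0 with Hdac6 KD and 3.53 and 3.69 with double KD (0.46 ± 0.07, adjusted p = 0.0504), with 2 further probes at 0.44 and 0.48 that did not separate the sets. Nr0b1, a nuclear receptor of the naive ESC, measured 2.83 and 2.69 with control KD, 3.29 and 3.09 with Tip60 KD, 3.63 and 3.49 with Hdac6 KD and 3.55 and 3.35 with double KD (0.53 ± 0.12, adjusted p = 0.0929). Nr5a2 (0.54 ± 0.08, adjusted p = 0.0431) and Klf2 (0.35 ± 0.07, adjusted p = 0.0849), which both act on Pou5f1 or the naive network, rose without separating the sets. Pou5f1, Nanog, Sox2 and Esrrb measured 0.05, -0.02, -0.09 and 0.01 and did not pass.

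Genes under let-7 had a median of 0.15, with 2 of 22 called and 17 of 22 above 0, beside 9630 of 18112 genes above 0. Besides Hmga2 this was Trim71, a ubiquitin ligase and RNA-binding protein of early development, which measured 3.70 and 3.85 with control KD, 3.63 and 3.86 with Tip60 KD, 4.32 and 4.43 with Hdac6 KD and 4.20 and 4.23 with double KD (0.54 ± 0.07, adjusted p = 0.0431). A second Trim71 probe separated the sets as well, at 0.14. Lin28b, which blocks let-7 maturation, separated them at 0.50 without a call, and Lin28a and Myc measured 0.31 and 0.94 without passing. Of 24 cytoskeletal genes 4 were called, all higher and none separating the sets: the actin gene Actb (0.47 ± 0.07, adjusted p = 0.0456), the filamin gene Flna (0.41 ± 0.07, adjusted p = 0.0532), the myosin light chain gene Myl9 (0.34 ± 0.06, adjusted p = 0.06, with control KD at the floor) and Srf, the transcription factor of actin genes (0.28 ± 0.07, adjusted p = 0.0993). The median of that list was 0.19. Actb measured 6.06 and 5.95 with control KD, 5.42 and 5.4 with Tip60 KD, 6.43 and 6.59 with Hdac6 KD and 5.86 and 5.85 with double KD and its sets overlapped, because control KD was above double KD. Lmna (0.34) separated them without a call.

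The 26 p53 targets had Perp, a desmosome and apoptosis gene, called higher (0.41 ± 0.07, adjusted p = 0.0597) and Sesn1, a stress-induced inhibitor of growth signalling, called lower (-0.45 ± 0.07, adjusted p = 0.051), both without separating the sets. Cdkn1a (-0.26) and Sesn2 (0.26) separated them without a call. Of the 26 targets 6 lay above 0, beside 9630 of 18112 genes, and the median was -0.10. Within the Tip60 states the median was -0.39 with Tip60 intact and 0.10 in Tip60 KD cells. Of 36 cell cycle genes only E2f1, a transcription factor of the entry into S phase, passed. It measured 0.52 and 0.57 with control KD, 0.59 and 0.73 with Tip60 KD, 0.98 and 0.90 with Hdac6 KD and 1.16 and 1.07 with double KD (0.43 ± 0.07, adjusted p = 0.0504), with every depleted array above every intact one. In the thioredoxin and glutathione list 1 of 26 was called, Gpx4, the peroxidase of membrane lipids. It measured 5.78 and 5.87 with control KD, 5.92 and 5.94 with Tip60 KD, 5.49 and 5.44 with Hdac6 KD and 5.32 and 5.25 with double KD (-0.50 ± 0.09, adjusted p = 0.0548). Srxn1 (0.71) and Nqo1 (0.57) of that list separated the sets without a call. None was called among 21 Nodal and Lefty genes, 19 germ layer genes, 13 interferon response genes, 7 genes of the 2-cell stage, 12 housekeeping genes and the 4 marker lists of cell types, whose medians ran from -0.17 to 0.10. Within them members that separated the sets without a call included Ddx58 (0.80) upward and Stat2 (-0.64), Pgk1 (-0.35) and Pdgfrb (-0.62) downward.

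**Figure D4:**
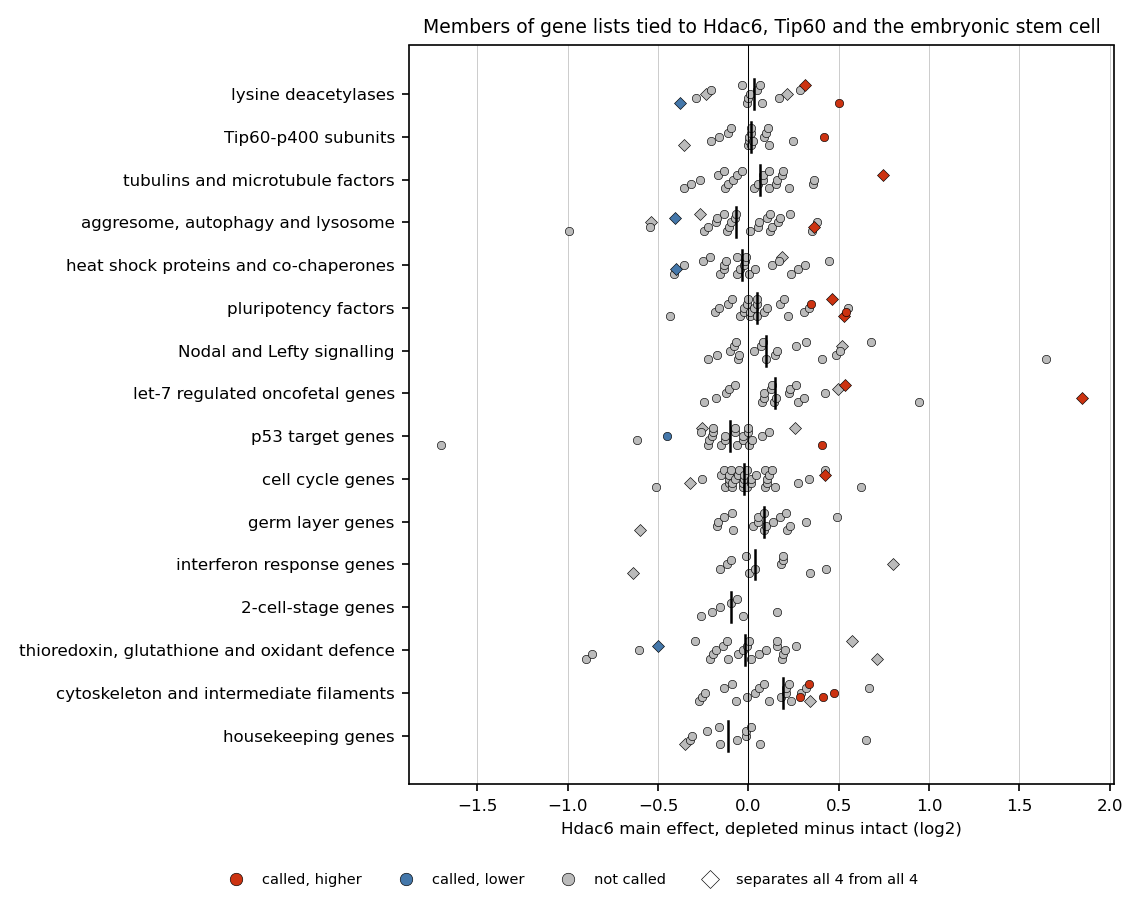
Hdac6 main effect (horizontal axis, log2, depleted minus intact) of every measured member of 16 gene lists. Red and blue points were called higher and lower, gray points were not called, diamonds separated all 4 arrays from all 4, and the black bar is the median of the list, which lies between -0.11 (housekeeping genes) and 0.19 (cytoskeleton) in every list; Hmga2 at 1.85 is the called gene farthest to the right.

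Depletion of Tip60, fitted in the same model on the same 8 arrays, was called for 4243 genes (23.4%). The 2 main effects share all arrays, so their values are only set side by side. Hmga2 had a Tip60 main effect of -0.48 (adjusted p = 0.372) beside its Hdac6 main effect of 1.85. Suz12 had 0.07 (adjusted p = 0.826) beside -1.18. Orc4 and Snap47 were called in opposite directions, with Tip60 main effects of 0.35 and 0.43 (adjusted p = 0.0164 and 0.0105). Klk1 was too, at 0.64 (adjusted p = 0.00995), and so were Phlda2, at -0.49 (adjusted p = 0.0543), and Map1b, at -0.43 (adjusted p = 0.0402). Slc5a11, Mpst and Ier3 were called in the same direction, at 1.01, -0.75 and -0.64 (adjusted p = 0.0249, 0.0143 and 0.0476). Fam81a, Spred1 and Trim71 had Tip60 main effects of 0.06, 0.01 and -0.09 that did not pass.

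Further probes of the same genes allow a look at the separation on measures that did not choose the genes. There were 136 such probes for 114 of the 532 genes. Of them, 111 (81.6%) differed in the direction of the first probe and 43 (31.6%) separated the sets that way, and 1 separated them the opposite way, while 8.19% of all 4446 further probes separated the sets in either direction. The arrays and samples are the same, so these are repeat readings and not replicates. The members differed from each other in level: the median signal was -0.22 for the 278 higher genes, 0.91 for the 254 lower genes and -0.28 over all genes, and 13.7%, 2.36% and 21.2% had a value at the floor. The median GC content of the probes was 40.8%, 45.0% and 43.3%. The shares on the X chromosome were 2.52%, 3.94% and 3.85%. The shares named through a RefSeq accession were 84.9%, 63.4% and 74.9% in the same order, and the rest kept the name given on the array.

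The separation itself has sharp edges. Frrs1 was called (0.66 ± 0.10, adjusted p = 0.0434) and just separated the sets, with a lowest depleted value of -1.67 and a highest intact value that rounds to the same figure, while Foxk1 (0.31 ± 0.07, adjusted p = 0.0809) overlapped by as little. Downward, Gm10413 (-0.41 ± 0.08, adjusted p = 0.0742) separated the sets and Jmjd7 (-0.30 ± 0.07, adjusted p = 0.0849) did not, again by margins that round to zero. With a gap of at least 0.1, 0.2 or 0.5 in place of any gap, 500, 195 and 11 genes separated the sets, and 356, 181 and 11 of them were called. The 11 with a gap of at least 0.5 were Hdac6, Orc4 and Plekhb2 downward and Hmga2, Ppp1r10, Fam81a, Rftn1, U2af2, Dhx9, Fzd6 and the probe A_55_P2157423, which has no gene name, upward. Among them U2af2, a splicing factor, measured -0.81 and -0.76 with control KD, -0.89 and -0.91 with Tip60 KD, -0.07 and -0.14 with Hdac6 KD and -0.14 and -0.14 with double KD. The Wnt receptor gene Fzd6 measured -1.60 and -1.54 with control KD, -1.65 and -1.55 with Tip60 KD, -0.74 and -0.66 with Hdac6 KD and -0.94 and -1.01 with double KD. In Fzd6 Hdac6 KD was above double KD, and its interaction was called (-0.24, adjusted p = 0.0885).

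How many genes were called depended on the model and on having all 8 arrays. With the interaction in the model 7388 genes were called, the 532 all among them. Without the replicate letter 233 were called, 187 of the 532 among them. Leaving out any 1 array left 0 genes called in the additive model, except that 2, Orc4 and Lefty2, were called without replicate B of double KD (the Lefty2 spot of replicate A was a flagged outlier, so that fit had no double KD value for it), while 2197 to 3685 passed an unadjusted p under 0.05. With the interaction term and 1 array left out, between 4454 and 7462 were called. The sizes moved less: without any 1 array Hmga2 ran from 1.61 to 2.09, Suz12 from -1.32 to -1.04, Orc4 from -1.11 to -1.06 and Hdac6 from -2.11 to -1.82. Within replicate A alone and within replicate B alone, which are the 2 slides, the sign of the lead genes is fixed by the rule that chose them, and the effects were 1.83 and 1.86 for Hmga2, -1.20 and -1.15 for Suz12 and -1.13 and -1.03 for Orc4, and limma called no gene with the 1 residual degree of freedom there (732 and 434 at an unadjusted p under 0.05).

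**Figure D5:**
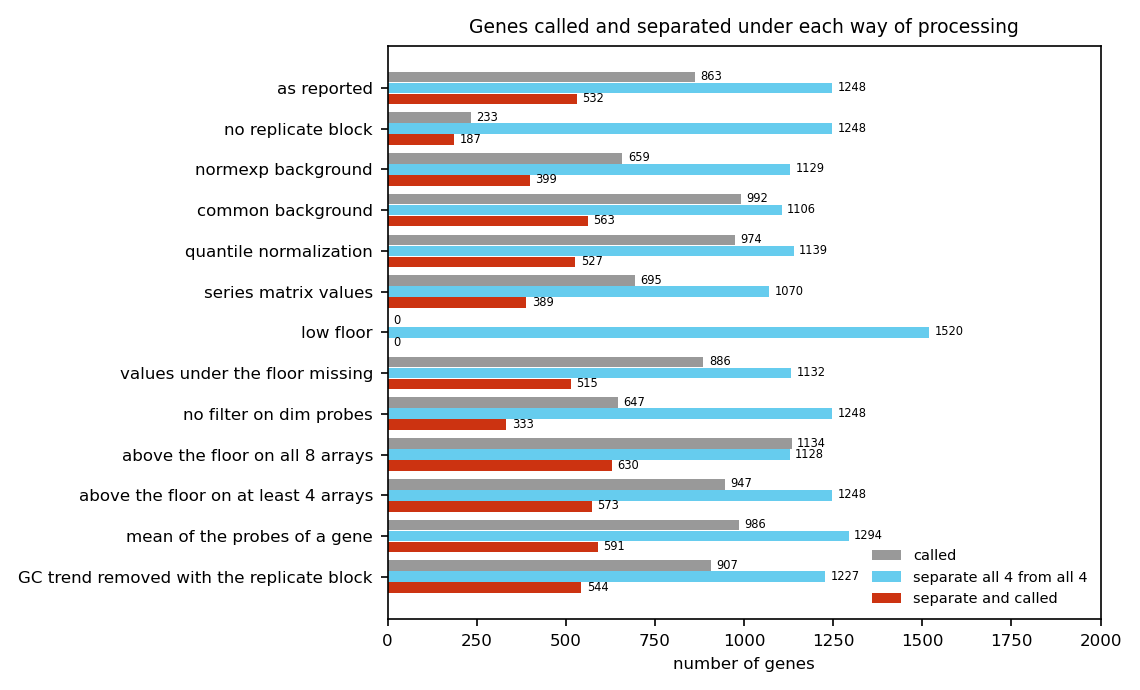
Number of genes (horizontal axis) called by the Hdac6 main effect (gray), separating all 4 arrays from all 4 (light blue) and meeting both conditions (red) under 13 ways of processing the arrays. The separated genes stay between 1070 and 1520, while the called genes run from 0 with a low floor to 1134 with only genes above the floor on all 8 arrays.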

How the data were processed

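The samples were 8 one-color Agilent 4x44K arrays. Per the labels and file headers, the authors extracted spot intensity values with Agilent Feature Extraction 10.7.1.1, with a background subtracted, on mm9 probe positions. The deposited series matrix holds log2 values by the authors and served as an alternative. The intensity of spots not called outliers was averaged per probe, divided by the 75th percentile of the array, set to a floor (0.153 of that percentile; each array's dimmest signal well above background, at its highest over the 8) and taken as log2. Probes above the floor and well above background on at least 2 arrays were kept, and each gene was read by its probe of highest mean signal. RefSeq accessions named 27324 of 39429 probes. The main effect was tested with limma 3.58.1 in R 4.3.3 (Hdac6, Tip60 and replicate letter, 2-sided, Benjamini-Hochberg adjusted p under 0.1, the threshold of the study), with 4 residual degrees of freedom and SEs from the fit. The 2 sets hold 4 arrays each, which limits the precision. Same-letter arrays deviated together (r = 0.651 to 0.799 between groups for A minus B), and each letter is 1 slide, so the letter was kept as a block. Named genes were Hdac6 and Kat5, the 12 largest increases and 12 largest decreases that separated the sets, were called and lay above the floor on all arrays, up to 3 each way with one set at the floor, up to 4 members of each list that separated and were called and 2 called without separating, and the genes nearest the separation boundary. All others named were chosen after their values were seen. Members and lists were chosen with earlier results of these data known. The fit was tested on simulated data without an Hdac6 by Tip60 interaction, so that test does not cover genes that have one. Figures were drawn with matplotlib 3.10.9. Alternatives covered background, normalization, floor, filter, probe choice, GC trend, model terms, a fold minimum and left-out arrays.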

Additional observations from a re-analysis of the deposited data

Results flagged for a closer look

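The Hdac6 difference in Tip60 KD cells, taken minus that in Tip60-intact cells, was tested as an interaction for Hdac6, Kat5 and the 23 other genes with the largest increases and decreases, and passed an adjusted p under 0.1 (limma) in 21 of these 25, beside 47.1% of all genes. Among genes that rose, the interaction (log2) was negative, so that the increase was smaller in Tip60 KD cells, in Hmga2 (-1.75), Slc5a11 (-1.03), Phlda2 (-0.54), Bend3 (-1.17), 1110006E14Rik (-0.89), Qser1 (-1.0), Tmem98 (-0.20), Fjx1 (-0.83), Trim2 (-0.79), Spred1 (-0.91) and BB558042 (-0.94). Among genes that fell it was positive, so that the decrease was smaller there, in Hdac6 (1.05), Suz12 (1.04), 8030474K03Rik (1.27), Plekhb2 (0.66), Got1l1 (0.81), Mpst (0.57), Ier3 (0.79), Rabac1 (0.64), Klk1 (0.37) and Dnaic2 (0.75). Hdac6 transcript itself is among the latter, so the 2 states also differ in how far Hdac6 was lowered, and the part of this in the other interactions was not tested. The named genes gave 100 sets of 4 arrays, where each set joins 2 groups. The intact sets of St7 and H1f10 lay wholly at the floor and could not be tested. In none of the remaining sets did 1 array stand apart from the other 3 past the critical value of Dixon's ratio. Where the 2 groups of a set differ, their values fall as 2 pairs, so this ratio can miss an outlying array.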

How the results depend on the processing

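No gene named by the rule changed direction under any alternative run, which for those chosen as separating the sets is fixed by that choice wherever arrays are only left out. The number called was 863 (477 higher, 386 lower), with 532 of them separating all 4 arrays from all 4. Without the replicate letter as a block these were 233 (128 and 105) and 187, the Hdac6 effect was called for 5236 genes in Tip60-intact cells and 671 in Tip60 KD cells, and the interaction for 3987. The pairing by letter comes from the slides. With the interaction term the counts were 7388 (3620 and 3768) and 1230, and the Tip60 main effect was called for 9812. With a low floor, which moved the median effect of all genes from 0.01 to 0.11, they were 0 (0 and 0) and 0 by limma (3939 at an unadjusted p under 0.05), with 0 genes in Tip60 KD cells, 5595 interactions and 2486 Tip60 calls, and Hdac6 itself (-1.96) was no longer called. Without a filter on dim probes, 333 genes separated and were called, 2840 were called in Tip60 KD cells and 2489 by Tip60. With at least 2-fold required there were 9 (4 and 5), 21 separated, and 9 did both. Gaps of at least 0.1, 0.2 and 0.5 left 500, 195 and 11 separating, and 356, 181 and 11 called among them. Within replicate A alone and within replicate B alone 4022 and 5347 separated 2 arrays from 2, and limma called 0 (0 and 0) in both by Hdac6 (732 and 434 at an unadjusted p under 0.05), with 0 doing both, and 0 by Tip60; Hdac6 measured -1.97 and -1.96 and Kat5 in the Tip60 main effect -1.48 and -1.35. Removing 1 array in turn gave 0 to 2 called genes (0 to 1 higher, 0 to 1 lower), 1439 to 2022 separating, 0 to 1 doing both, 5853 to 9268 called in Tip60-intact cells, 804 to 5275 in Tip60 KD cells, 5744 to 8838 interactions and 2010 to 3950 Tip60 calls. Removing 1 array with the interaction term kept, chosen after seeing the data, gave 4454 to 7462 called (2128 to 3883 higher, 2326 to 3807 lower), 1184 to 1785 doing both and 8040 to 10188 Tip60 calls, and the Hdac6 effect ran from -2.11 to -1.82 over all left-out arrays, called in 0 of 8 without that term. The causes were not tested. Normexp, a common background, quantile normalization, the series matrix values, missing values under the floor, other filters, the mean of probes and removal of a GC trend kept each of the counts within 1.5 times. Membership moved more than the counts. Of the 532 genes, 305 still separated and were called with the series matrix values, 333 with normexp and 400 with a common background. The other settings of this group kept 414 (quantile normalization) to 532 (above the floor on at least 4 arrays). Without a filter on dim probes, outside this group, 290 still did. Of 49 named genes, 12 were no longer called with normexp and 11 with the series matrix values. Outside this group, 24 were no longer called without a filter on dim probes, 24 without the replicate letter and 48 with a low floor. Precision is limited by 2 arrays per group, and at the floor by signal over background.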

Other observations

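Some genes had large Hdac6 main effects in one Tip60 state and were not called in the additive model. Lefty2, a Nodal antagonist of the early embryo, measured 1.43 and 1.54 with control KD, 3.66 and 3.64 with Tip60 KD, 3.86 and 4.04 with Hdac6 KD and 3.99 (replicate B, that of A being a flagged outlier) with double KD, for a main effect of 1.65 ± 0.45 over 7 arrays (adjusted p = 0.144), and the 3 depleted values were above all 4 intact ones. Rgcc, a p53 target and regulator of the cell cycle, measured 1.42 and 1.43 with control KD, -1.73 and -1.96 with Tip60 KD, -2.05 and -2.15 with Hdac6 KD and -1.67 and -1.75 with double KD, for a main effect of -1.70 ± 0.71 (adjusted p = 0.259). Txnip, an inhibitor of thioredoxin, measured 4.57 and 4.43 with control KD, 1.78 and 1.49 with Tip60 KD, 2.12 and 1.88 with Hdac6 KD and 2.47 and 2.19 with double KD (-0.90 ± 0.63, adjusted p = 0.459), and Myc measured 0.34 and 0.26 with control KD, 3.57 and 3.33 with Tip60 KD, 2.35 and 2.16 with Hdac6 KD and 3.52 and 3.23 with double KD (0.94 ± 0.40, adjusted p = 0.263). The lysosomal gene Lamp2 had -1.88 in Tip60-intact cells and -0.10 in Tip60 KD cells. These genes were chosen after their values were seen.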
